A study of Homo sapiens with 6 samples.

Results

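The ubiquitin-like modifier *ISG15* and the 5 genes of its conjugation and removal machinery, *UBA7*, *UBE2L6*, *HERC5*, *HERC6* and *USP18*, were followed in SW480 cells with and without MDM4 plasmids. These 6 genes were chosen by name among the 19225 genes of the expression table, and all 6 were above the limit for testing, as were 12884 genes in all. SW480 is a line of colon cancer cells in long use, whose p53 is mutant, and MDM4 is a binding partner and inhibitor of p53. RNA sequencing covered 3 libraries of control cells and 3 libraries labelled as exercised, which were read as the cells transfected with MDM4 plasmids because no other group was labelled. Both groups share the cell line, the p53 genotype and plasmid transfection as their listed treatment. The plasmid given to the control cells, the time after transfection and the share of cells that took up plasmid are not given in the sources used here. No label says that replicates came from separate cultures, so p-values measure only the spread between these libraries, which may be technical.

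ISG15 is a small protein that interferon-treated cells attach to other proteins, much as ubiquitin is attached, and that they also release. UBA7 activates ISG15, UBE2L6 carries it, and HERC5 is the main ligase that transfers it to target proteins in human cells. HERC6 is a close relative of HERC5 and holds that ligase role in mice. USP18 removes ISG15 from proteins and also binds the interferon receptor, where it dampens signalling. All of these genes are known to be induced by interferon through the factor ISGF3, which holds IRF9 and binds the interferon-stimulated response element.

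The *ISG15* and *HERC5* promoters are shown because they hold matches to this element, and because the 2 genes differed in how far their levels moved between libraries. Sequences are from RefSeq (GRCh38.p14), from 250 bases before the RefSeq start to 50 bases after it. They run 5′ to 3′ on the strand of the gene. Matches to the letters of the element, GAAA followed by any 2 bases and GAAA again, on either strand, are in capitals.
ISG15, plus strand, chr1:1013247-1013546: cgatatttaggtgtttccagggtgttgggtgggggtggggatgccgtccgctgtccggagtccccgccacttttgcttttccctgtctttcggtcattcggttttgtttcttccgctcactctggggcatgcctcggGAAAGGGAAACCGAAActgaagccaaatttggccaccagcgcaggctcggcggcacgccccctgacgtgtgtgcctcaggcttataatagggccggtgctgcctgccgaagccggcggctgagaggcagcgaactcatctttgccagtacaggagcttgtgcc
HERC5, plus strand, chr4:88456869-88457168: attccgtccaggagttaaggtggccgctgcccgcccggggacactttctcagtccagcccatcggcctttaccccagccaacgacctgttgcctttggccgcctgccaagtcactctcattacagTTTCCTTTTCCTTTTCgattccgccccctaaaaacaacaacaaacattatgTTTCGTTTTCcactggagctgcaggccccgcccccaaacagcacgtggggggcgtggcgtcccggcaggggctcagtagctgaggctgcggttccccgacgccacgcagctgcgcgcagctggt
In *ISG15* the motif was found 113 to 104 and 107 to 98 bases upstream of the start, so that the 2 matches overlap. In *HERC5* it was on the other strand, 125 to 116, 119 to 110 and 74 to 65 bases upstream, with the first pair overlapping. The motif was in 1255 of 35116 promoter windows (3.57%) and in those of 29 of 44 other interferon-stimulated genes with a window (65.9%). Of the 4 genes of the system with a window, *HERC6* (1 window) and *UBE2L6* (2 windows) held no match. The promoters of *UBA7* and *USP18* were not analysed here. A match is a description of letters, not of binding.

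In GENCODE release 29 on GRCh38, *ISG15* spans bases 1001138 to 1014540 of chromosome 1 (plus strand). This span begins farther upstream than the RefSeq start, so the promoter window of *ISG15* lies inside it. *UBA7* spans bases 49805207 to 49813946 of chromosome 3 (minus strand). *UBE2L6* spans bases 57551656 to 57568284 of chromosome 11 (minus strand) and *USP18* bases 18149899 to 18177397 of chromosome 22 (plus strand). *HERC6* (chromosome 4, 88378739 to 88443111) and *HERC5* (88457117 to 88506163) are neighbours on the plus strand, 14005 bases apart. Sequence shared with other genes touches *USP18* most. Of the 2080 stretches of 50 bases in its transcript, 487 (23.4%) also occur in transcripts of other genes, and 479 of these occur in *USP41*, which was not analysed here, so its values are uncertain to that extent. In *HERC6* 30 of 3732 stretches were shared, all with *HERC3*, and in the other 4 genes no stretch was. Of the exonic bases of *ISG15*, 36 (3.83%) overlap a gene on the other strand, and whether the counting used strand is not given in the sources used here.

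Expression was deposited as FPKM, the reads on a gene divided by its length and by the library's total, so that levels of different genes can be compared. Reads were recovered from the FPKM steps, and 32922845 to 44563310 reads per library lay on genes. *MDM4*, the transfected gene, was at 5.13 to 7.09 FPKM in the control and at 188, 185 and 56.3 FPKM in MDM4 replicates 1, 2 and 3. Replicate 3 stood apart from replicates 1 and 2 in both groups. The epithelial keratins *KRT8* and *KRT18* were at 1482 FPKM or more in each library and the epithelial adhesion molecule *EPCAM* at 156 FPKM or more, while the intestinal factor *CDX1* reached at most 0.0701 FPKM. Markers of other cells stayed low. Of 12 leukocyte markers 8 were under 0.5 FPKM in each library, and their sum, most of it *LAPTM5*, was 10.6 to 12 FPKM in the control and 9.44 to 11.8 FPKM in the MDM4 libraries. The pan-leukocyte marker *PTPRC* reached at most 0.0142 FPKM. The sum of 7 fibroblast markers, mostly *COL1A1*, was 1.75 to 3.94 FPKM in the control and 1.97 to 3.94 FPKM in the MDM4 libraries, with *DCN* and *COL1A2* listed at 0 in 5 libraries each.

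All 6 genes of the ISG15 system were lower on average in the MDM4 libraries, at 48.1% to 77.4% of the control mean, but none was a DEG across all 6 libraries. The differences were found in replicates 1 and 2. There, *ISG15*, *HERC6* and *USP18* fell to 39.3%, 44.2% and 41.7% of the control, while in replicate 3 the 6 genes were between 88.3% and 104% of the control library of the same number. A DEG had an adjusted p under 0.05 (limma on log2(FPKM + 0.1), Benjamini-Hochberg over all tested genes) and differed by over 1 on the log2 scale. On this scale fold changes of low genes are understated. Over all 6 libraries the transfected *MDM4* was not a DEG either, at a log2 fold change of 4.33 (limma adjusted p = 0.161). The lack of calls in that fit is therefore no evidence that a gene was unchanged. In bulk RNA, fewer responding cells and less RNA per cell cannot be told apart.

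**Figure D1:**
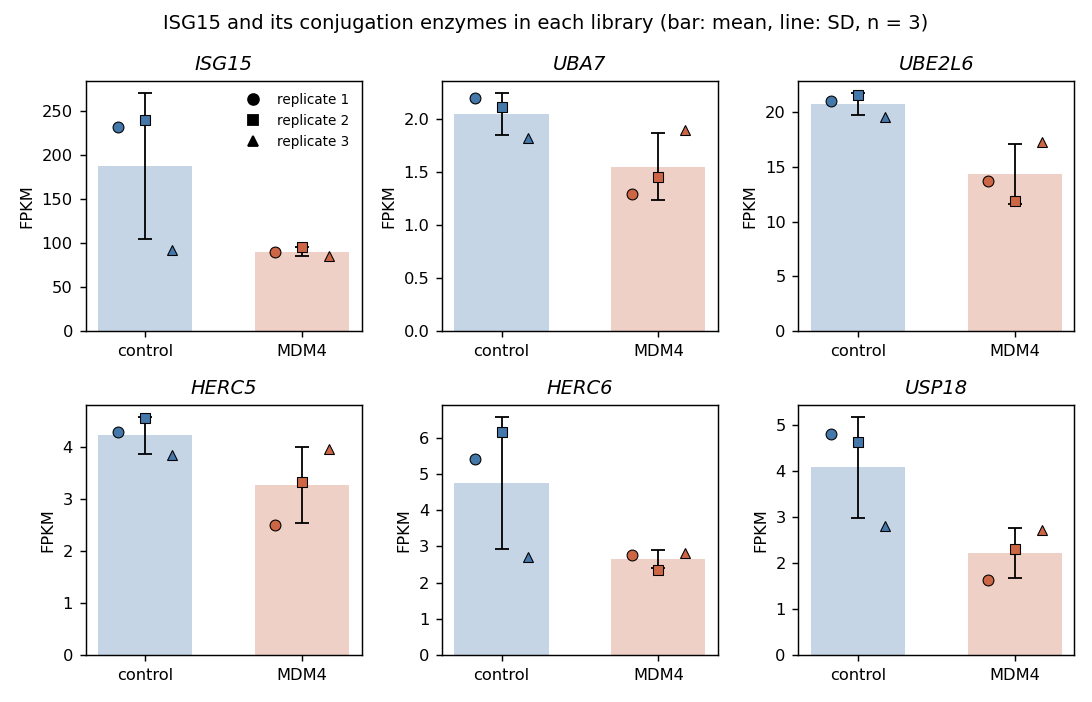
FPKM (linear axis from 0) of the 6 genes of the ISG15 system in each library, with circles, squares and triangles for replicates 1, 2 and 3, bars for the group mean and lines for the SD (n = 3 per group). Control replicate 3 of *ISG15* (92.7 FPKM) sits at the level of the MDM4 libraries, whereas control replicate 3 of *UBE2L6* (19.6 FPKM) sits near the other control libraries.

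*ISG15*, the modifier itself, was at 232, 240 and 92.7 FPKM in control replicates 1, 2 and 3, from 6931, 5701 and 2488 reads. With MDM4 its level was 89.8, 95.7 and 86.1 FPKM, from 2181, 2215 and 1898 reads. Control replicates 1 and 2 were thus high and the other 4 libraries were alike, so that the groups overlap through control replicate 3. The means were 188 ± 82.8 FPKM in the control and 90.5 ± 4.82 FPKM in the MDM4 group (SD, n = 3). On the log2 scale the difference was -0.93 (standard error 0.33, limma adjusted p = 1.0, unadjusted p = 0.0237), at rank 32 of 12884 from the lowest. Replicates 1 and 2 alone gave -1.35 (standard error 0.065, limma adjusted p = 5.60e-07). Without control replicate 3 *ISG15* was a DEG, at -1.38 (limma adjusted p = 4.88e-04). Leaving out that library removes the overlap, and its value was known, so this fit is no separate support.

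*UBA7*, which activates ISG15, had the lowest level of the system. It was at 2.20, 2.12 and 1.82 FPKM in the control (326, 250 and 243 reads) and at 1.29, 1.45 and 1.90 FPKM in the MDM4 libraries (156, 167 and 208 reads). MDM4 replicates 1 and 2 were the low libraries, while MDM4 replicate 3 lay within the control range. The means were 2.05 ± 0.198 and 1.55 ± 0.315 FPKM (SD, n = 3). Over 6 libraries the log2 fold change was -0.39 (standard error 0.20, limma adjusted p = 1.0), and it was -0.62 (standard error 0.18, limma adjusted p = 0.292) in replicates 1 and 2 alone, which is not past the threshold.

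*UBE2L6*, the conjugating enzyme that carries ISG15, was at 21.0, 21.5 and 19.6 FPKM in the control (1356, 1106 and 1135 reads) and at 13.7, 11.9 and 17.3 FPKM in the MDM4 libraries (720, 595 and 823 reads). All MDM4 libraries lay below all control libraries, with MDM4 replicate 3 nearest to them. The means were 20.7 ± 1.02 and 14.3 ± 2.74 FPKM (SD, n = 3). The difference on the log2 scale was -0.55 (standard error 0.14, limma adjusted p = 1.0, unadjusted p = 0.00493), and the exact two-sided permutation test gave p = 0.1, the smallest that 3 against 3 libraries allow. With replicates 1 and 2 alone it was -0.73 (standard error 0.098, limma adjusted p = 0.00323), past the limit on p but not on the fold change.

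*HERC5*, the ligase, was at 4.28, 4.54 and 3.83 FPKM in the control (674, 570 and 543 reads) and at 2.50, 3.33 and 3.95 FPKM in the MDM4 libraries (321, 407 and 460 reads). The groups overlap because MDM4 replicate 3 lay above control replicate 3. The means were 4.22 ± 0.358 and 3.26 ± 0.727 FPKM (SD, n = 3). Its log2 fold change was -0.38 (standard error 0.19, limma adjusted p = 1.0), and in replicates 1 and 2 alone it was -0.59 (standard error 0.16, limma adjusted p = 0.229).

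*HERC6*, the relative of *HERC5* beside it on chromosome 4, was at 5.43, 6.17 and 2.70 FPKM in the control (932, 843 and 417 reads). With MDM4 it was at 2.76, 2.36 and 2.81 FPKM (386, 314 and 356 reads). As with *ISG15*, control replicates 1 and 2 were high and the other 4 libraries lay together. The means were 4.77 ± 1.83 and 2.64 ± 0.248 FPKM (SD, n = 3). On the log2 scale MDM4 libraries differed by -0.75 (standard error 0.30, limma adjusted p = 1.0, unadjusted p = 0.0366). It was a DEG in replicates 1 and 2 alone, at -1.15 (standard error 0.14, limma adjusted p = 0.00172).

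*USP18*, which takes ISG15 off again, was at 4.81, 4.63 and 2.81 FPKM in the control (438, 336 and 230 reads) and at 1.63, 2.31 and 2.72 FPKM in the MDM4 libraries (121, 163 and 183 reads). The groups did not overlap, but the lowest control library was only 1.03-fold above the highest MDM4 library, and both are replicate 3. The means were 4.08 ± 1.11 and 2.22 ± 0.549 FPKM (SD, n = 3). The log2 difference was -0.84 (standard error 0.27, limma adjusted p = 1.0, unadjusted p = 0.0145), and by exact permutation p was 0.1, which is the lowest value possible. With replicates 1 and 2 alone *USP18* was a DEG, at -1.24 (standard error 0.17, limma adjusted p = 0.00401).

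Counted together, 0 of the 6 genes were DEGs over all libraries, where 0 of 12884 genes were. At an unadjusted p under 0.05 there were 4 of the 6, against 222 genes (1.72%) in all. The libraries of the MDM4 group all lay below those of the control in 2 of the 6 genes (*UBE2L6* and *USP18*), against 3.76% of the tested genes. With replicates 1 and 2 alone, 3 of the 6 were DEGs, all lower, against 36 of 12746 tested genes (0.282%), and with *UBE2L6* 4 of the 6 passed the limit on p alone, against 0.557%. Voom on the recovered reads of these 4 libraries called the same 3 genes, against 0.29% of all. Without control replicate 3, 1 of the 6 was a DEG, against 0.117%. Fits with the replicate number as a block called 0 of the 6, against 0.0155% with limma on FPKM and 0.116% with voom. The median log2 fold change of the 6 genes was -0.65 over 6 libraries and -0.94 in replicates 1 and 2 alone, where the medians of all tested genes were -0.0091 and -0.0078.

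**Figure D2:**
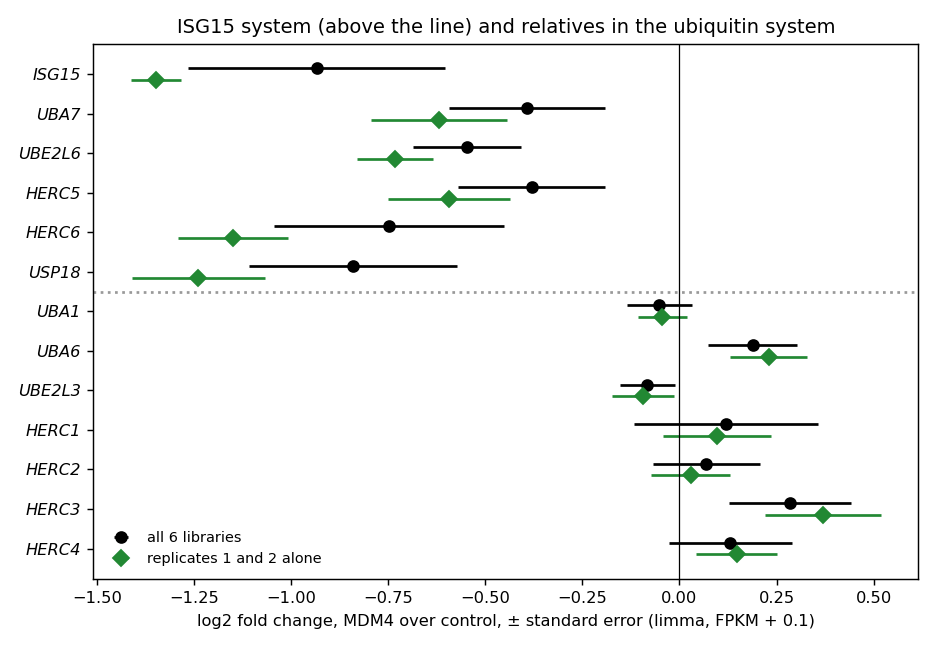
Log2 fold change of MDM4 over control on FPKM + 0.1 with its standard error from limma, over all 6 libraries (circles) and in replicates 1 and 2 alone (diamonds), for the 6 genes of the ISG15 system and for 7 relatives that serve ubiquitin. The 6 genes lie between -1.35 and -0.38 and the 7 relatives between -0.09 and 0.37.

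By replicate number, each MDM4 library was set against the control library of the same number. In replicate 1 the log2 differences of the 6 genes were between -1.5 (*USP18*) and -0.61 (*UBE2L6*), and in replicate 2 between -1.35 (*HERC6*) and -0.44 (*HERC5*). In replicate 3 they were between -0.18 (*UBE2L6*) and 0.06 (*UBA7*). Thus 6 of 6 genes were lower in replicate 1, 6 of 6 in replicate 2 and 3 of 6 in replicate 3. Of all tested genes, 27.6% were lower in both replicates 1 and 2 and 51% (6573 genes) in replicate 3. Apart from *HERC5*, each of the genes was lower by over 0.5 in both replicates 1 and 2 (5 of 6), which 0.931% of the tested genes were. The medians of the 6 genes were -0.85, -0.91 and -0.00026 in replicates 1, 2 and 3, beside -0.02, 0.0016 and -0.0043 for all tested genes.

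**Figure D3:**
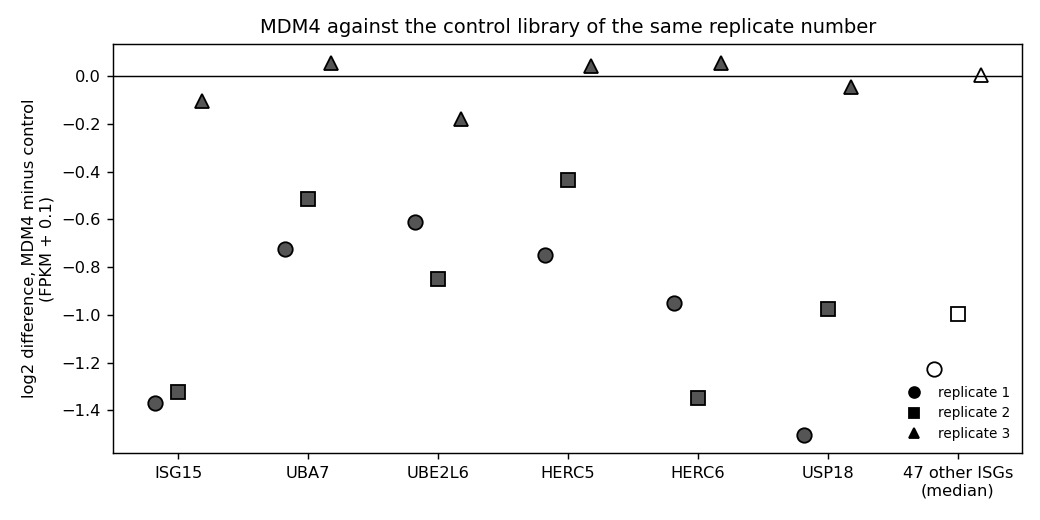
Log2 difference between the MDM4 and the control library of the same replicate number (FPKM + 0.1), by gene, with the median of 47 other interferon-stimulated genes (ISGs) as open symbols. Replicates 1 and 2 lie between -1.5 and -0.44 in the 6 genes, and replicate 3 lies between -0.18 and 0.06.

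The difference between replicate 3 and the others was itself tested, as the effect of MDM4 in replicate 3 minus that in replicates 1 and 2. It was 1.24 for *ISG15* (standard error 0.11, limma adjusted p = 5.66e-04), and 0.186% of all tested genes had an effect higher in replicate 3 at an adjusted p under 0.05. It was of like size but not past the threshold for *HERC6* (1.20, limma adjusted p = 0.201) and *USP18* (1.19, limma adjusted p = 0.490). For *UBA7*, *HERC5* and *UBE2L6* it was 0.68, 0.64 and 0.55 (limma adjusted p = 1.0 for each). This test has 1 library per group in replicate 3, takes all of its spread from replicates 1 and 2 and assumes that replicate 3 varies like them, and its split was made with replicate 3 known to stand apart. The level of the transfected *MDM4* also differed there, at 30.1% of its mean in MDM4 replicates 1 and 2, and its part in the result was not tested.

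The gap in replicate 3 was closed to different degrees by its 2 libraries. Control replicate 3 of *ISG15* and *HERC6* was at 39.3% and 46.6% of the mean of control replicates 1 and 2, while MDM4 replicate 3 was at 92.9% and 109.7% of the mean of MDM4 replicates 1 and 2. For *UBA7*, *HERC5* and *UBE2L6* control replicate 3 was at 84.5%, 86.9% and 92.0% of the other controls, and MDM4 replicate 3 was at 138%, 136% and 135% of the other MDM4 libraries. *USP18* was at 59.5% in the control and at 138% in the MDM4 group. Replicate 3 was higher for the median tested gene, by 0.09 on the log2 scale in the control and 0.10 in the MDM4 group. Each shift is therefore best read by its percentile among all tested genes. In control replicate 3 these were 0.349, 0.605 and 2.11 for *ISG15*, *HERC6* and *USP18*, and 15.2, 17.6 and 23.9 for *UBA7*, *HERC5* and *UBE2L6*. In MDM4 replicate 3 they were 25.2, 54.6 and 83.2 for the first 3 genes and 81.9, 81.7 and 81.3 for the others. Both libraries of *UBA7* and *HERC5* thus moved about equally far toward each other when read this way, and within the bulk of genes, while *ISG15* and *HERC6* were far out in the control library. With 1 library on either side of each shift, none of these was tested.

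**Figure D4:**
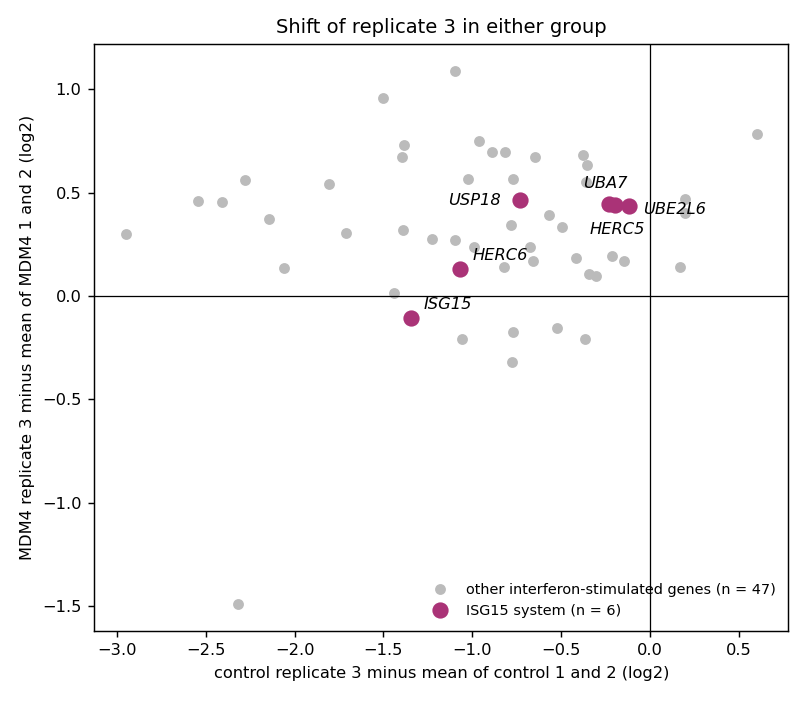
Shift of replicate 3 from the mean of replicates 1 and 2 on the log2 scale (FPKM + 0.1), in the control (x axis) and in the MDM4 group (y axis), for the 6 genes and for 47 other interferon-stimulated genes (grey). *ISG15* and *HERC6* lie at -1.35 and -1.07 on the x axis near 0 on the y axis, while *UBA7*, *HERC5* and *UBE2L6* lie between -0.23 and -0.12 on the x axis and at 0.43 to 0.44 on the y axis.

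Levels within the system were unequal. In the control, *ISG15* was 9.09-fold above *UBE2L6* and *UBE2L6* was 4.35-fold above *HERC6*, with no overlap between libraries. *HERC6*, *HERC5* and *USP18* followed within 1.13-fold and 1.03-fold of each other, with overlapping libraries, and *USP18* was 1.99-fold above *UBA7*. In the MDM4 group *ISG15* was 6.33-fold above *UBE2L6* and *UBE2L6* was 4.38-fold above *HERC5*, while the ranges of neighbours among *HERC5*, *HERC6*, *USP18* and *UBA7* overlapped. *ISG15* made up 86.0%, 86.0% and 75.1% of the summed FPKM of the system in control replicates 1, 2 and 3, and 80.4%, 81.8% and 75.0% in the MDM4 libraries. Its share was thus highest in control replicates 1 and 2 and lowest in replicate 3 of either group.

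The balance between the modifier and its enzymes was compared as the ratio of FPKM in the same library, with exact two-sided permutation tests, for 8 ratios. In control replicates 1, 2 and 3 there was 106-fold, 113-fold and 50.9-fold more *ISG15* than *UBA7*, and in the MDM4 libraries 69.4-fold, 65.9-fold and 45.3-fold more. Relative to *ISG15*, the log2 level of *UBA7* was higher by 0.54 with MDM4 (p = 0.3 by exact permutation), that of *HERC5* by 0.55 (p = 0.3 by exact permutation) and that of *UBE2L6* by 0.39 (p = 0.5 by exact permutation). For *HERC6* and *USP18* the difference was 0.19 (p = 0.3 by exact permutation) and 0.09 (p = 0.8 by exact permutation), and the last changed sign without control replicate 2 and without MDM4 replicate 3. The ratio of *HERC5* to *HERC6* was higher by 0.37 (p = 0.4 by exact permutation). In all 6 of these ratios the groups overlapped, and over the 8 ratios the adjusted p (exact permutation, Benjamini-Hochberg) was between 0.48 and 0.8.

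**Figure D5:**
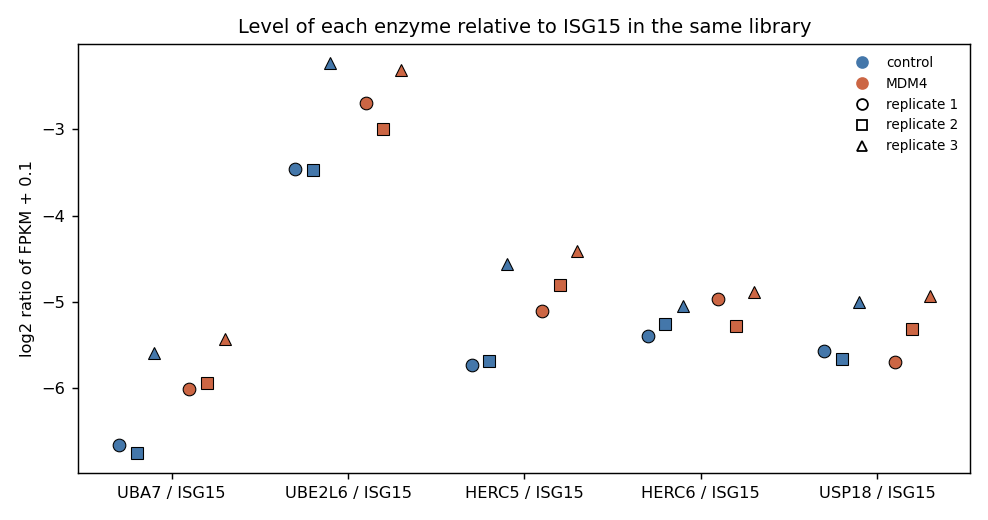
Log2 ratio of the FPKM + 0.1 of each enzyme to that of *ISG15* in the same library (control blue, MDM4 orange, symbols by replicate). For *UBA7* and *HERC5* control replicates 1 and 2 have the lowest ratios and replicate 3 of either group the highest.

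The enzymes were also set against their relatives that serve ubiquitin. *UBE2L3*, a conjugating enzyme close to *UBE2L6*, was at 37.2 to 42.3 FPKM in all libraries and differed by -0.08 on the log2 scale (standard error 0.071). The log2 ratio of *UBE2L6* to *UBE2L3* was -0.94 ± 0.092 in the control and -1.41 ± 0.28 in the MDM4 group (SD, n = 3), and the groups did not overlap (exact permutation p = 0.1, adjusted p = 0.48 over 8 ratios). *UBA1*, which activates ubiquitin, was at 161 to 192 FPKM, and the log2 ratio of *UBA7* to it was lower by 0.34 with overlapping groups (exact permutation p = 0.2). Of 7 relatives tested (*UBA1*, *UBA6*, *UBE2L3* and *HERC1* to *HERC4*), 2 had a fold change below 0 and 0 were DEGs in either comparison. Their median log2 fold change was 0.12, with *HERC3* (0.28), *UBA6* (0.19) and *HERC4* (0.13) farthest from 0. *HERC3*, farther along chromosome 4 than *HERC6* and *HERC5*, was at 4.25, 4.0 and 4.98 FPKM in the control and at 6.19, 4.64 and 5.4 FPKM in the MDM4 libraries, so that it was higher in the MDM4 library of each number.

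Other enzymes that have been described to act on ISG15 gave no DEG among 8. They include the ligases TRIM25 and ARIH1 and the proteases USP16 and USP21. Their median log2 fold change was 0.05, and *USP21* (-0.18), *ARIH1* (0.11) and *USP5* (-0.10) were farthest from 0. Of 52 genes of other ubiquitin-like systems, such as SUMO, NEDD8, UFM1 and ATG proteins, 24 were lower, none was a DEG, and the median was 0.0043. The interferon-inducible modifier *UBD* differed by -0.44 on the log2 scale (standard error 0.41), and *SENP7*, a SUMO protease, by 0.38 (standard error 0.25).

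Genes upstream of the ISG15 system, 14 receptors, kinases, transcription factors and inhibitors of interferon signalling, differed by a median of -0.11 on the log2 scale, with 11 lower and no DEG over 6 libraries. In replicates 1 and 2 alone 2 of the 14 were DEGs, *IRF9* and *IRF7*, against 0.282% of all genes. *IRF9*, the DNA-binding subunit of ISGF3, was at 19.6, 17.2 and 6.98 FPKM in the control and at 3.80, 4.76 and 7.12 FPKM in the MDM4 libraries. It was thus high in control replicates 1 and 2, and alike in replicate 3 of both groups. *IRF7*, which drives interferon genes, was at 12.3, 10.1 and 6.44 FPKM against 4.90, 4.74 and 6.15 FPKM. Among the interferons, *IFNL1* was at 0.940 and 1.44 FPKM in control replicates 1 and 2 and was listed at 0 in the other 4 libraries. *IFNL2* was at 1.31 and 2.10 FPKM there, at 0.0412 FPKM in MDM4 replicate 3 and listed at 0 in the others. *IFNL3* was at 1.98 and 2.22 FPKM there, at 0.0854 and 0.188 FPKM in MDM4 replicates 1 and 3 and listed at 0 in the others. *IFNB1*, a type I interferon, was at 0.0521 and 0.196 FPKM in control replicates 1 and 2 and listed at 0 in the others. *IFNE*, also of type I, went the other way, at 0.0606, 0.0761 and 0.303 FPKM in the control and 0.428, 0.488 and 0.533 FPKM in the MDM4 libraries, with no overlap. *IFNE*, *IFNB1* and *IFNL1* were too low to be tested over 6 libraries. Few reads lay behind the levels of *IFNE* and *IFNB1*. For *IFNE* there were 4, 4 and 18 control reads against 23, 25 and 26 with MDM4. Control replicates 1 and 2 held 2 and 6 reads of *IFNB1*, 43 and 55 of *IFNL2* and 57 and 51 of *IFNL3*. Reads of *IFNL1* are not given, because with 2 libraries above 0 the FPKM steps do not fix its length. *IFNE* was named after its values were seen, and its lack of overlap was not set against that of all genes.

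Proteins that have been described as targets of ISG15 were covered at the RNA level by 21 tested genes. Of these 16 were lower, with a median log2 fold change of -0.08, and 0 were DEGs over all libraries. In replicates 1 and 2 alone 3 were DEGs, *MX1*, *IFIT1* and *IFIH1*, which are themselves interferon-induced, against 0.282% of all genes. *MX1*, an antiviral GTPase, was at 30.6, 30.4 and 5.65 FPKM in the control and at 3.86, 3.75 and 5.26 FPKM in the MDM4 libraries.

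Among other interferon-stimulated genes, 45 of 47 were lower, and the median log2 fold change was -0.73, beside -0.65 for the 6 genes of the ISG15 system. By replicate number their medians were -1.23, -1.0 and 0.0053. In replicates 1 and 2 alone 23 of 48 were DEGs, all lower, against 0.282% of all genes. The gene lists overlap, and these 23 include *IRF9*, *IRF7*, *MX1*, *IFIT1* and *IFIH1*, which were already counted above. Those with the lowest fold change over 6 libraries were *XAF1* (-2.41, standard error 0.64), *IFI6* (-2.29, standard error 0.72) and *MX1* (-2.01, standard error 0.60), and each was further below 0 than any gene of the ISG15 system. The shift of control replicate 3 had a median of -0.82 in these 47 genes and of -0.48 in the 6 genes, and that of MDM4 replicate 3 had a median of 0.33 and 0.44.

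The genes whose pattern over the 6 libraries was most like that of *ISG15* were *PLSCR1*, *OAS3*, *PARP9*, *HERC6* and *SLC15A3*. Likeness was measured as the root mean square difference of log2 values centred on each gene's mean, which was 0.16, 0.17, 0.17, 0.18 and 0.19 for them and 0.68 for the median of all tested genes. Of the system, *USP18* came 17th (0.31), while *UBE2L6*, *UBA7* and *HERC5* came at places 153, 161 and 230 (0.49, 0.50 and 0.51). *HERC5* differed from *UBA7* by only 0.081 and from its neighbour *HERC6* by 0.40. From *HERC5* the median of all tested genes was 0.31, so *HERC6* was farther from it than the median gene. The measure takes in the size of a change as well as its shape.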

How the data were processed

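SW480 RNA was enriched for mRNA with oligo(dT), and per the labels 3 control and 3 MDM4 libraries were made. The authors deposited FPKM values for 19225 symbols (2036 listed at 0 throughout) in columns that carry a letter and a number. These were read as the group and the replicate number. The aligner and annotation are not given in the sources used here. For all 17189 genes above 0 (100%) a length was found that gives whole reads from the FPKM steps. The shortest such length was taken, so reads of low genes can come out too few. In simulated data 99.21% of genes with at least 20 reads in a library came back exactly. The recovered reads, 32922845 to 44563310 per library, served for reads per gene and the voom alternatives.

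For the 12884 genes whose mean reached 0.5 FPKM, limma 3.58.1 (R 4.3.3) was run on log2(FPKM + 0.1) (eBayes with trend, no block), with Benjamini-Hochberg adjustment over all tested genes. The fit for replicates 1 and 2 alone was filtered over its own 4 libraries. Scripts were tested on simulated data. Single ratios were compared by exact permutation tests (scipy 1.17.1). Gene positions are from GENCODE 29, promoters from RefSeq. Python 3.11.15, numpy 2.4.6, pandas 2.3.3 and matplotlib 3.10.9 were used.

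The 6 genes, the gene lists and the tests were chosen with earlier results of these data known, so replicates 1 and 2 alone are not independent support. Named are the 6 genes, MDM4, the relatives in the ratios, USP41, genes among the 3 of each list farthest from 0, and the 5 patterns nearest to ISG15, and some genes of this rule are not reported here. Other genes were named after their values were seen, among them IRF7, IFNL1, IFNB1, IFNE and the marker genes. Deviations from the group means correlated at 0.46, 0.45 and 0.78 in same-numbered libraries. Control 1 with MDM4 2 and control 2 with MDM4 1 correlated at 0.46 and 0.44 as well. Replicate 3 thus stood apart in both groups, but pairing of replicates 1 and 2 by number is not shown by these values. Libraries were still paired by number in the block and in the differences by replicate. Alternatives were other scalings, filters and pseudocounts, no trend in eBayes, the block, a batch term for replicate 3, voom, and each library left out.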

Additional observations from a re-analysis of the deposited data

Results flagged for a closer look

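The effect of MDM4 on *ISG15* differed between replicate 3 and replicates 1 and 2, by 1.24 on the log2 scale (standard error 0.11, interaction term in limma, adjusted p = 5.66e-04), and was picked out because this term passed the threshold. Its spread comes from replicates 1 and 2 alone, replicate 3 has 1 library per group, and the split was made knowing that replicate 3 stood apart, so the p-value does not measure how far replicate 3 itself would vary. Leaving out any other library, it was between 1.20 and 1.29. *ISG15* was lower with MDM4 by 1.37 and 1.32 on the log2 scale in replicates 1 and 2 and by 0.11 in replicate 3.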

How the results depend on the processing

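All 120 alternative log2 fold changes of the 6 genes (20 per gene) were below 0, from -1.38 to -0.21. In replicates 1 and 2 alone, calls were gained for ISG15 (-1.35, and -1.35 with voom), HERC6 (-1.15, and -1.17 with voom) and USP18 (-1.24, and -1.29 with voom), so that 3 of the 6 genes were called with either tool and 37 DEGs with limma and 38 with voom in all. Leaving out each library in turn gave 0 to 1 of the 6 genes and 0 to 16 DEGs in all, with 16 without control replicate 3 and 1 without MDM4 replicate 3. The log2 fold change was then -1.38 to -0.70 for ISG15, -0.54 to -0.28 for UBA7, -0.69 to -0.42 for UBE2L6, -0.53 to -0.21 for HERC5, -1.11 to -0.53 for HERC6 and -1.08 to -0.64 for USP18. Leaving out each library of replicates 1 and 2, the replicate 3 difference was 1.09 to 1.31 for HERC6, 0.96 to 1.43 for USP18 and 0.45 to 0.66 for UBE2L6. Such fits take their spread from replicates 1 and 2 of only 1 group, so no p-value is given for them. The cause was not tested. The USP18 to ISG15 ratio reversed to -0.03 without control replicate 2 and to -0.10 without MDM4 replicate 3, the lowest, and was 0.30 at the highest, without control replicate 3.

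With the replicate block, pairing libraries by number, there were 2 DEGs, as with a batch term for replicate 3 (2), and 15 with voom and the block. None was among the 6 genes, whose limma adjusted p was between 0.219 and 0.385 with the block. ISG15 had an adjusted p of 0.0352 with voom and the block at -1.0, short of the limit on the fold change. The block changed no call of the 6 genes, while the transfected MDM4 became a DEG with it (4.33, limma adjusted p = 4.77e-05). Each of the 6 genes had 121 reads or more in each library.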
